A study of Homo sapiens with 8 samples.

Results

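The 10 genes described here are the cadherins and transcription factors of the epithelial to mesenchymal transition. They are the cadherin genes CDH1, CDH2, CDH3 and CDH11, the epithelial adhesion gene EPCAM, and the factor genes SNAI1, SNAI2, TWIST1, ZEB1 and ZEB2. They were chosen by name, with earlier results of these data known. All 10 were found among the 32416 gene symbols of both days, each with 1 locus a day. RNA had been sequenced from H9, an established human embryonic stem cell line, in 4 groups of 2 libraries. Cells induced toward mesoderm with bFGF, Activin, VEGF and BMP4 and taken at day 3.5 were grown on a soft gel of 400 Pa or a stiff gel of 60 kPa. Undifferentiated cells of day 0 were grown on the same 2 gels (400 Pa and 60 kPa), without that cocktail per the labels. All groups came from this 1 line and were kept in feeder-conditioned medium on gels.

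E-cadherin, made from CDH1, joins epithelial cells to each other, and human embryonic stem cells grow as an epithelium that carries it. When the embryo forms mesoderm, cells of the epiblast leave this layer through a mesenchymal transition, in which SNAI, ZEB and TWIST factors repress CDH1 and EPCAM while N-cadherin, made from CDH2, and cadherin 11 come up. The replacement of CDH1 by CDH2 is known as the cadherin switch. The ZEB factors are in turn held down in epithelia by the miR-200 family and miR-205.

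The mature sequences of those miRNAs are shown because the host gene of miR-205 and both ZEB genes were measured, and because they fall into groups by seed. Sequences are those of RefSeq on GRCh38.p14, 5′ to 3′, with the seed (bases 2 to 8) in capitals.
hsa-miR-200b-3p: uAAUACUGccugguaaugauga
hsa-miR-200c-3p: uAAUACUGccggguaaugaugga
hsa-miR-429: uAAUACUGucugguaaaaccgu
hsa-miR-200a-3p: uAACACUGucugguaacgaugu
hsa-miR-141-3p: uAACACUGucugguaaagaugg
hsa-miR-205-5p: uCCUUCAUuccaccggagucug

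The first 3 share the seed AAUACUG and the next 2 the seed AACACUG, which differs from it at 1 base, while miR-205 has a seed of its own. The letters opposite the first seed, CAGTATT, were found 6 times in the 2549-base 3′ UTR of the ZEB1 transcript with the longest coding sequence (GENCODE release 29, sense strand). Of 3451 genes with a 3′ UTR at least that long, 0.0290% held as many in a stretch of that length, which is ZEB1 itself and no other gene. The 5370-base 3′ UTR of ZEB2 held it 5 times, a count that 0.122% of 821 genes reached, which is ZEB2 itself and no other gene. CAGTGTT, opposite the second seed, was found 3 times in ZEB1 and 4 times in ZEB2. ATGAAGG, opposite the miR-205 seed, was found 1 time in ZEB1, as in 18.6% of the 3451 genes at least once, and 0 times in ZEB2. Of the other 8 genes, CDH11 and SNAI2 held CAGTATT 1 time each, and CDH3 and CDH11 held ATGAAGG 1 time each. Such matches describe the letters only, and the miRNAs themselves were not measured here. A match of each kind is given on GRCh38 with the paired letters in capitals.
ZEB1, chr10:31527618-31527647, plus strand: attgttttatcttatCAGTATTatcactct
ZEB1, chr10:31528067-31528096, plus strand: aatatgtggtaacatATGAAGGatatgaca
ZEB2, chr2:144389045-144389074, minus strand: cgcactaccatacatCAGTATTtttattat
ZEB2, chr2:144389229-144389258, minus strand: tgcaaaaattttgtaCAGTGTTaaggccta

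SNAI, ZEB and TWIST proteins bind E-boxes, and the core CAGGTG is the one best known for SNAI and ZEB. On the other strand it reads CACCTG. RefSeq promoter windows of 300 bases, which reach past the start site, were matched for CDH2, ZEB1 and ZEB2 among the 10 genes, 10 windows in all. Of these windows 2 held the core on either strand, both of ZEB1, against 20.6% of 35116 promoters. ZEB1 has several of the 10 windows, and the one shown is the richest of the 10 in this core. It held the core 3 times, as 0.635% of single promoter windows did at least, with the cores in capitals (GRCh38.p14, chr10:31318966-31319265, plus strand).
ZEB1 promoter: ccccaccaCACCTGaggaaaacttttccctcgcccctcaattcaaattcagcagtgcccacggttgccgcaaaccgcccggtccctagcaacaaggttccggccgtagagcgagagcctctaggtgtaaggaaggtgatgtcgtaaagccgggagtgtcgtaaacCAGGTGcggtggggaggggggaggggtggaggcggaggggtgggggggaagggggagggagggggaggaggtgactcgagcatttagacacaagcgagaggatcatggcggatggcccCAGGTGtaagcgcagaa

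For each gene and group the deposited value is 1 FPKM (fragments scaled to transcript length and library size), with no value per library, so read depth is unknown and no SD stands behind a value. The labels do not say whether paired libraries came from separate cultures, so p-values and q-values of the authors measure a spread that may be technical. A gene is called here where q is below 0.05 in the authors' deposited table and its FPKM reached 1 on a gel. A change is log2((FPKM + 1) on 400 Pa / (FPKM + 1) on 60 kPa), which understates low genes. Its standard error (SE) was taken from the deposited values, as log2 ratio over statistic, an approximation that holds for the ratio without the added 1. The label of the cells was checked against markers. Of 6 pluripotency markers the summed level was 448 FPKM on the soft gel and 733 on the stiff one at day 3.5, against 1480 and 1633 at day 0. On 400 Pa all 6 were lower at day 3.5 by 1 log2 unit or more, and on 60 kPa 4 were. There SOX2 was higher at day 3.5, at 164 against 116 FPKM, and LIN28A was at 239 against 249. All 8 mesoderm markers measured at day 3.5 had at least 1 FPKM on a gel, against 1 of the 7 measured at day 0.

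**Figure D1:**
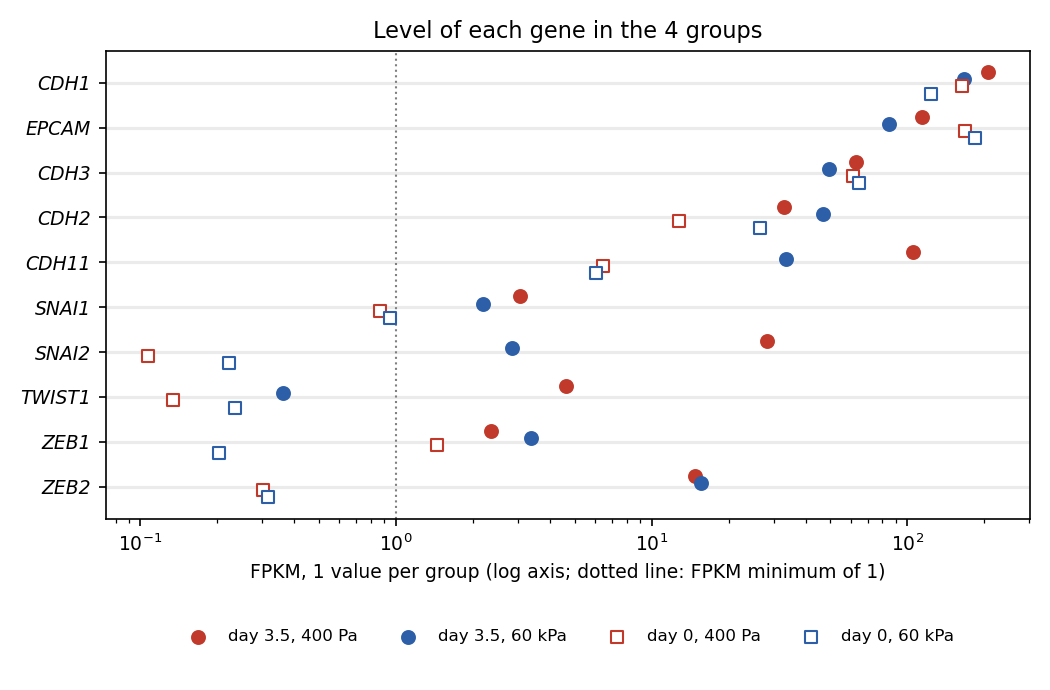
FPKM of each gene in the 4 groups on a log axis, 1 deposited value per group with no error; circles are day 3.5, squares day 0, red 400 Pa and blue 60 kPa. CDH1 stays between 124 and 206.5 FPKM in all groups, while SNAI2 spans 0.107 to 28.2 FPKM.

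Levels at day 3.5 and day 0 come from tables made separately, so they are set side by side without a test. RNA was taken from whole cultures, so fewer cells of a kind and less RNA per cell cannot be told apart. The epithelial genes CDH1, EPCAM and CDH3 stayed at 49.3 FPKM or more in all groups, though EPCAM lay lower at day 3.5. CDH1 was at 206.5 FPKM on the soft gel and 167 on the stiff one at day 3.5, against 164 and 124 at day 0. Its level at day 3.5 was thus the higher one on both gels, by 0.33 and 0.43 log2 units. EPCAM, whose product is a surface adhesion protein of epithelial and pluripotent cells, was at 115 and 84.9 FPKM at day 3.5, against 169 and 184 at day 0. It was the only one of the 10 that lay lower at day 3.5 on both gels, with -0.56 on 400 Pa and -1.10 on 60 kPa. CDH3, the gene of placental cadherin, was at 63.2 and 49.3 FPKM at day 3.5, against 61.3 and 64.6 at day 0. It moved by 0.04 and -0.38 log2 units, and the first of these turns to -0.05 when all FPKM are rescaled without the 10 highest loci.

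CDH2 and CDH11 had their higher levels at day 3.5 on both gels, beside this epithelial set. CDH2 was at 32.8 FPKM on the soft gel and 47.0 on the stiff one at day 3.5, against 12.8 and 26.4 at day 0. CDH11, typical of mesenchyme, was at 106 and 33.6 FPKM at day 3.5, against 6.43 and 6.08 at day 0. Its ratio of day 3.5 to day 0 was 16.4 on the soft gel and 5.52 on the stiff gel, the widest of the 4 cadherins on each. FPKM is given per length of transcript, so the levels of different genes can be added. The 4 cadherins together came to 408 and 297 FPKM at day 3.5, against 245 and 221 at day 0. Of that sum, CDH1 made up 50.6% on 400 Pa and 56.3% on 60 kPa at day 3.5, against 67.1% and 56.2% at day 0. The share of CDH2 and CDH11 together was 33.9% and 27.1% at day 3.5, against 7.86% and 14.7% at day 0. CDH1 thus remained the most abundant of the 4 in all groups, at 6.29 times the level of CDH2 on 400 Pa and 3.56 times on 60 kPa at day 3.5. At day 0 it stood at 12.8 and 4.70 times the level of CDH2.

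**Figure D2:**
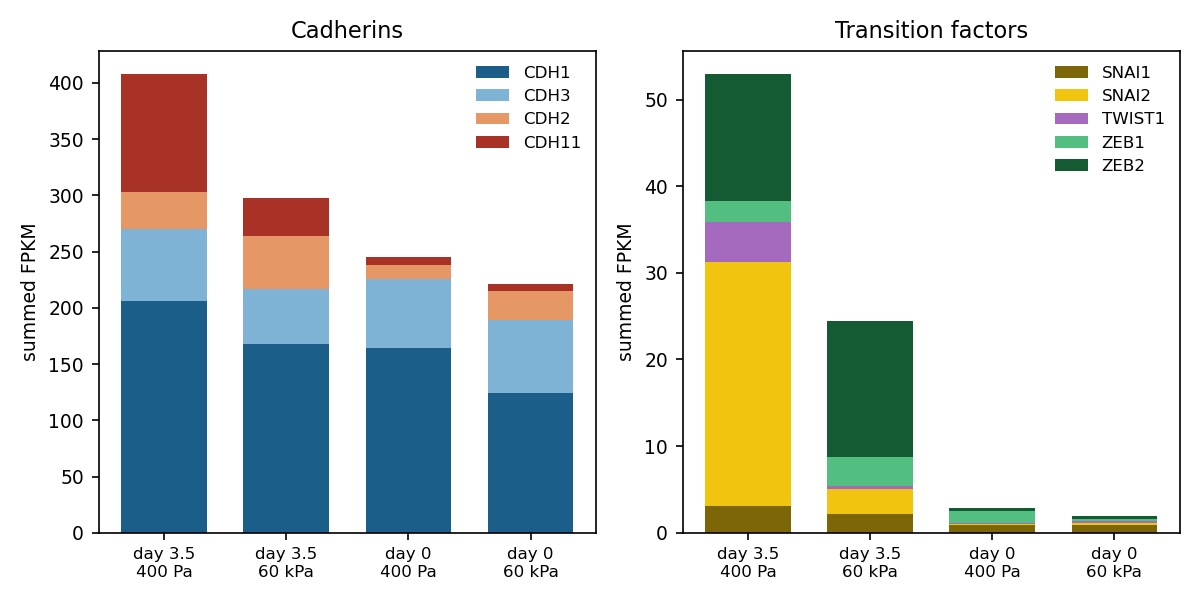
Summed FPKM of the 4 cadherins (left) and of the 5 transition factors (right) in each group, stacked by gene, with no error since each group has 1 deposited value. CDH1 is the broadest block of the cadherins in every group, and SNAI2 makes up 53.2% of the factors on 400 Pa at day 3.5, against 11.6% on 60 kPa.

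The 5 factors were near the floor at day 0 and differed in which came up. SNAI2, the gene of the repressor Slug, was at 28.2 FPKM on the soft gel and 2.85 on the stiff one at day 3.5, against 0.107 and 0.223 at day 0. ZEB2 was at 14.7 and 15.7 FPKM at day 3.5, against 0.302 and 0.315 at day 0. TWIST1, a basic helix-loop-helix factor of mesoderm and neural crest, was at 4.64 and 0.362 FPKM at day 3.5, against 0.134 and 0.234 at day 0. ZEB2 thus came to about the same level on both gels, whereas SNAI2 and TWIST1 were far apart between them. SNAI1, the gene of the repressor Snail, was at 3.06 and 2.19 FPKM at day 3.5, against 0.866 and 0.951 at day 0. ZEB1 was at 2.35 and 3.38 FPKM at day 3.5, against 1.45 and 0.203 at day 0. No factor but ZEB1 on 400 Pa reached 1 FPKM at day 0, and no factor but TWIST1 on 60 kPa stayed below it at day 3.5. The summed level of the 5 was 53.0 and 24.5 FPKM at day 3.5, against 2.85 and 1.93 at day 0. On 60 kPa at day 3.5, ZEB2 held 64.1% of the sum, against 27.8% on 400 Pa.

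In this comparison of days, 9 of the 10 genes lay above 0 on the soft gel, against 50.1% of all genes that reached 1 FPKM on a day. On the stiff gel TWIST1 did not reach it, and 7 of the other 9 lay above 0, against 50%. Of the 10, 6 were higher at day 3.5 by 1 log2 unit or more on 400 Pa, where 9.61% of 16289 expressed genes were. On 60 kPa 4 of 9 were, against 6.71% of 16016 genes. Lower by as much were 0 on the soft gel and 1, EPCAM, on the stiff gel, against 5.99% and 4.22% of genes. The largest such values were 4.72 for SNAI2, 3.84 for CDH11 and 3.60 for ZEB2 on the soft gel, and 3.66 for ZEB2 and 2.29 for CDH11 on the stiff gel. Low day 0 levels make these values depend on the pseudocount: with 0.1 in place of 1, SNAI2 came to 7.10 on 400 Pa and 3.19 on 60 kPa. ZEB2 came to 5.21 and 5.25, and TWIST1 on 400 Pa to 4.34, against 2.31. SNAI1, SNAI2, ZEB2 and TWIST1 on the soft gel, and SNAI1, SNAI2, ZEB1 and ZEB2 on the stiff gel, were below 1 FPKM at day 0. They passed the minimum only through day 3.5 and so could only lie higher there, and nothing is read from these shares. ZEB2 and EPCAM each hold 3 small RNA genes in the GENCODE annotation, and no other of the 10 holds one; what these add to the FPKM was not tested.

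**Figure D3:**
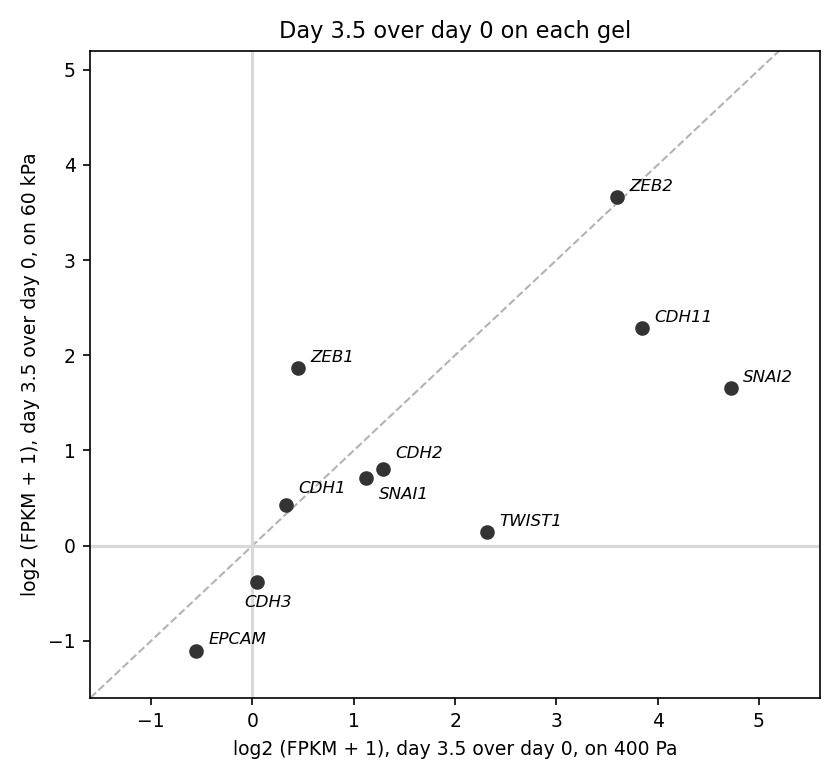
Each gene's log2((FPKM + 1) at day 3.5 / (FPKM + 1) at day 0) on 400 Pa (x axis) and on 60 kPa (y axis), with no error; the dashed line marks equal values. ZEB2 lies on the line at 3.60 and 3.66, SNAI2 (4.72 and 1.65) and TWIST1 (2.31 and 0.14) lie below it, and ZEB1 (0.45 and 1.86) above it.

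The comparison of gels asks which of these genes depended on the stiffness under the induced cells. At day 3.5 SNAI2, TWIST1 and CDH11 were called with a higher level on 400 Pa than on 60 kPa, and none of the 10 was called with a lower one. That is 3 of 10 tested, where 1.32% of all 18720 tested loci were called in either direction and 1.07% were called in the authors' deposited table with the higher level on 400 Pa. The median change of the 10 was 0.35, against 0.02 over all tested loci. TWIST1 met the minimum of 1 FPKM only through 400 Pa, where it is higher, and so could only be called on that side. The 10 were also chosen with earlier results of these data known, so nothing is read from these shares.

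SNAI2 (hg19, chromosome 8, 49830127 to 49834547) stood at 28.2 FPKM on the soft gel and 2.85 on the stiff one, a ratio of 9.91. Its change was 2.92 (SE 0.63), with a q of 0.00783 in the authors' deposited table, and 99.5% of tested loci had a lower change. TWIST1 stood at 4.64 and 0.362 FPKM, a ratio of 12.8 and a change of 2.05, with a q of 0.0436 in the authors' deposited table. Its SE of 1.56 belongs to the log2 ratio without the added 1, which is 3.68. TWIST1 is the least certain of the calls, since its FPKM on the stiff gel is below 1 and its call ends at a q threshold of 0.01 or an FPKM minimum of 5. Its locus in the files (chromosome 7, 19060614 to 19157295) also spans 96.7 kb, where the RefSeq gene spans 4.59 kb. Other transcripts joined to that locus would count in its FPKM, and their part was not tested. CDH11 (chromosome 16, 64977514 to 65160015) stood at 106 and 33.6 FPKM, a ratio of 3.15, with a change of 1.62 (SE 0.79) and a q of 0.00783 in the authors' deposited table. It is the one of the 4 cadherins that passed the test on either day. The deposited p does not go with the deposited statistic in 2 of these 3 calls. For CDH11 the p is 5e-05 in the authors' deposited table, where its statistic alone gives 0.0368 in a normal approximation, and for TWIST1 it is 0.0005, where the statistic gives 0.0185. The SE given here rest on the statistic, the calls on the deposited p. Such a gap is also seen in calls among the lists below, which include GRHL1, TP63, PRRX1, KRT7, OTX2, VWF and, at day 0, TFAP2A.

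The other cadherins and EPCAM missed the threshold at day 3.5, and each of the 7 genes without a call had a q of 0.99998 in the authors' deposited table. CDH1 (chromosome 16, 68771128 to 68870988) had 206.5 FPKM on the soft gel and 167 on the stiff one, a change of 0.30 with an SE of 1.58. Either direction lies within 1 such SE for CDH1. EPCAM (chromosome 2, 47572297 to 47614740) had 115 and 84.9 FPKM, a change of 0.43 (SE 0.50) and a p of 0.212 in the authors' deposited table. Its locus spans 42.4 kb in the files, where the RefSeq gene spans 17.7 kb. CDH3 had a change of 0.35 (SE 0.75). CDH2 (chromosome 18, 25529495 to 25757749) was the cadherin with the opposite sign, at 32.8 and 47.0 FPKM, a change of -0.50 (SE 0.70) and a p of 0.183 in the authors' deposited table. Thus the levels of CDH2 and CDH11 lay on opposite sides between the gels, and only that of CDH11 passed. For CDH2 either direction lies within 1 such SE.

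The other factors missed the threshold at day 3.5 as well. ZEB2 (chromosome 2, 145141648 to 145282147) had 14.7 FPKM on the soft gel and 15.7 on the stiff one, a change of -0.08 (SE 0.93). ZEB1 (chromosome 10, 31476812 to 31818742) had 2.35 and 3.38 FPKM, a change of -0.39 with an SE of 2.96, so its direction is undetermined. SNAI1 (chromosome 20, 48599536 to 48605423) had 3.06 and 2.19 FPKM, a change of 0.35 (SE 0.78) and a p of 0.387 in the authors' deposited table. Within the SNAI pair, then, SNAI2 differed by a ratio of 9.91 and SNAI1 by one of 1.39.

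**Figure D4:**
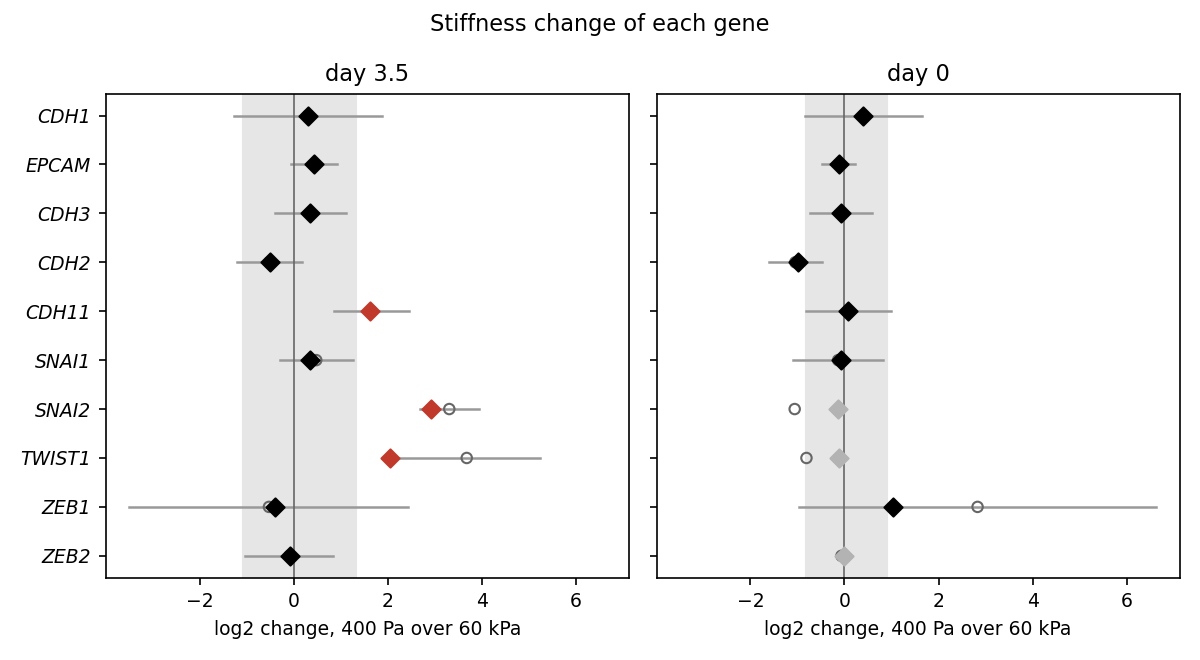
Log2 change of 400 Pa over 60 kPa at day 3.5 (left) and day 0 (right): diamonds are log2 of FPKM + 1 (red where called, grey where the authors did not test), open circles the deposited log2 ratio with 1 implied SE as a line, and the grey band holds 95% of all tested loci by log2 of FPKM + 1. SNAI2 (2.92), TWIST1 (2.05) and CDH11 (1.62) lie beyond the band at day 3.5, and CDH2 (-0.99) and ZEB1 (1.02) lie beyond it at day 0 without a call.

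At day 0 none of the genes was called in the authors' deposited table (Cufflinks comparison), where 0.141% of 17761 tested loci were (0.0619% with the soft gel above, 0.0788% with the stiff gel above). The authors tested 7 of the 10, and 6 of these reached 1 FPKM. SNAI2, ZEB2 and TWIST1 were not tested, and SNAI1 was tested at under 1 FPKM. At an unadjusted p below 0.05 there were 2 of the 6, CDH2 and ZEB1, against 1.82% of all tested loci. CDH2 was at 12.8 FPKM on the soft gel and 26.4 on the stiff one, a change of -0.99 (SE 0.56), with p = 0.0067 but a q of 0.99983 in the authors' deposited table. Its level thus lay on the stiff side on both days. ZEB1 was at 1.45 and 0.203 FPKM, a change of 1.02. The SE of 3.79 belongs to its log2 ratio without the added 1, which is 2.83. Its p of 0.0006 in the authors' deposited table does not go with its statistic of -0.746 there either, which lies within 1 SE of 0. The ZEB1 locus spans 342 kb in the files, where the RefSeq gene spans 211 kb.

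CDH1 at day 0 was at 164 FPKM on the soft gel and 124 on the stiff one, a change of 0.40 (SE 1.25). EPCAM was at 169 and 184 FPKM (-0.12, SE 0.35), and CDH3 at 61.3 and 64.6 FPKM (-0.07, SE 0.66). CDH11 was at 6.43 and 6.08 FPKM, a change of 0.07 (SE 0.91) that turns to -0.01 when FPKM are rescaled without the 10 highest loci. CDH11 thus had near-equal levels on the gels before induction and a 3.15 ratio after it. Whether a change differed between days was tested from both deposited ratios and their SE (normal approximation, adjusted over 14316 genes), and so rests on the statistic and not on the deposited p. For CDH11 the change at day 3.5 minus that at day 0 was 1.57 (SE 1.21), and for ZEB1 -3.36 (SE 4.81). None of the 6 genes that could be compared passed, with 0 of 6 at an unadjusted p below 0.05, where 0.0768% of all genes passed. SNAI2 and TWIST1 could not be compared, since they were not tested at day 0.

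Genes that belong to the epithelial state were then described at day 3.5. Of 26 tested genes of tight junctions, desmosomes, keratins and the epithelial surface, none was called in the authors' deposited table, and 5 had an unadjusted p below 0.05, where 5.83% of all tested loci did. KRT8, DSC2, DSP and PKP2 were among them, and each of these had its higher level on the soft gel. KRT8, a keratin of simple epithelia, was at 619 FPKM on the soft gel and 225 on the stiff one, a change of 1.46 (SE 0.62) with a q of 0.0637 in the authors' deposited table. CLDN6, a tight junction claudin, was at 197 and 190 FPKM, without a call. The median of the list was 0.25, against 0.02 over all tested loci, and 21 of its 26 genes lay above 0.

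Among 8 tested regulators of epithelial identity, GRHL1 and TP63 were higher on 400 Pa than on 60 kPa by the authors' deposited table, and none was called lower. GRHL1, a grainyhead factor of epithelia, was at 22.4 FPKM on the soft gel and 7.001 on the stiff one, a change of 1.55 (SE 0.75) with a q of 0.0323 in the authors' deposited table. TP63, a p53-family factor of stratified epithelium, was at 3.21 and 0.488 FPKM, a change of 1.501. The SE of 1.15 belongs to the log2 ratio without the added 1. ESRP1, a splicing regulator of epithelial cells, was at 32.3 and 32.5 FPKM at day 3.5, against 60.5 and 59.0 at day 0. Over all tested loci, 1.07% were called with the higher level on 400 Pa. TP63 reached 1 FPKM only on 400 Pa, and its call ends at an FPKM minimum of 5. That of GRHL1 ends at a q threshold of 0.01. The p in the authors' deposited table, 5e-05 for TP63 and 0.0003 for GRHL1, do not go with the statistics of -2.36 and -2.23 there. Within these limits, the genes called higher on the soft gel include both transition factors and epithelial regulators.

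Among the mesenchymal effectors at day 3.5, VIM was the only call of 16 tested genes in the authors' deposited table. VIM, the gene of the intermediate filament vimentin, was at 552 FPKM on the soft gel and 187 on the stiff one at day 3.5, against 139 and 270.2 at day 0. Its change at day 3.5 was 1.55 (SE 0.42). Of the 16, 13 lay above 0, with a median of 0.67, and 6 had an unadjusted p below 0.05 in the authors' deposited table. Over all tested loci the median was 0.02, 5.83% had such a p and 1.32% were called. The lists were chosen with earlier results known, so nothing is read from these counts. SPARC, a matrix glycoprotein, was at 2639 FPKM on the soft gel and 868 on the stiff one without a call. PRRX1, a homeobox factor of mesenchyme, was the only call of 9 tested among the other transition factors in the authors' deposited table. Its level was 16.4 FPKM on the soft gel and 0.726 on the stiff one, a change of 3.33. The SE of 2.42 belongs to the log2 ratio without the added 1. The p of PRRX1 is 5e-05 in the authors' deposited table, which does not go with its statistic of -1.86 there. PRRX1 reached 1 FPKM only on the soft gel. The E-protein genes TCF3 (86.7 and 86.8 FPKM) and TCF4 (83.9 and 65.1 FPKM), whose products pair with TWIST1, were not called. TWIST2 was below 1 FPKM in all 4 groups.

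At day 0 VIM was called on the stiff side, with a change of -0.95 (SE 0.31) and a q of 0.0390 in the authors' deposited table. Of 14 tested effectors, 2 were called in the authors' deposited table, both with the higher level on 60 kPa, and 10 of the 14 lay below 0, with a median of -0.29. Over all loci tested at day 0, 0.141% were called, and 0.0788% were called with the higher level on 60 kPa. Of these loci 1.82% had an unadjusted p below 0.05, and the median change was 0.02. Epithelial junction genes had no call of 25 at day 0 and 0 with an unadjusted p below 0.05 in the authors' deposited table, and their median was -0.03. The 9 epithelial regulators had no call either in the authors' deposited table, 1 with an unadjusted p below 0.05, and a median of 0.44.

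The partners of the cadherins and factors showed no call on either day in the authors' deposited table. Of 10 catenins and junction partners tested on each day, 0 at day 3.5 and 1 at day 0 had an unadjusted p below 0.05. Over all tested loci 5.83% at day 3.5 and 1.82% at day 0 had such a p. CTNNB1, whose product beta-catenin binds the cadherin tail, was at 228 FPKM on the soft gel and 207 on the stiff one at day 3.5, against 234 and 204 at day 0. CTNNA1, which links that complex to actin, was at 176 and 156 FPKM, against 176 and 178. CTNND1 and JUP lie in loci merged with other genes and were not counted. Of 12 corepressors and regulators of SNAI protein, 0 had an unadjusted p below 0.05 on either day. HDAC2, a histone deacetylase recruited by SNAI1, was at 221 and 188 FPKM at day 3.5, against 209 and 202 at day 0. In the TGF-beta pathway 1 of 10 genes had an unadjusted p below 0.05 at day 3.5 in the authors' deposited table. It was SMAD7, an inhibitor of the pathway, at 19.2 and 8.13 FPKM, and none of 9 did at day 0.

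Among 16 further cadherin genes, 9 reached the FPKM minimum and were tested at day 3.5 and 5 at day 0, with no call in the authors' deposited table and 3 and 2 at an unadjusted p below 0.05. Over all tested loci 5.83% and 1.82% had such a p. CDH6, a type II cadherin, was at 21.9 FPKM on the soft gel and 49.3 on the stiff one at day 3.5, a change of -1.14 (SE 0.70) with p = 0.0038 in the authors' deposited table. At day 0 it was at 15.3 and 6.37 FPKM, a change of 1.15 (SE 0.66) with p = 0.00395 in the authors' deposited table. The change at day 3.5 minus that at day 0 was -2.44 (SE 0.96) and did not pass the adjustment over 14316 genes. CDH6 thus had its higher level on opposite gels on the 2 days, without a call on either.

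MIR205HG, the host gene of miR-205, was at 27.0 FPKM on the soft gel and 13.98 on the stiff one at day 3.5, against 173 and 15.8 at day 0. By the authors' deposited table its day 0 level was called higher on the soft gel (change 3.38, SE 0.45). Fragments of the small RNA inside that gene may count in its FPKM, which was not tested, and the miRNA was not measured on its own. Of 7 gene symbols of miR-205 and the miR-200 family that were looked up, only MIR205HG was found on either day. No value is therefore given for the miR-200 family.

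**Figure D5:**
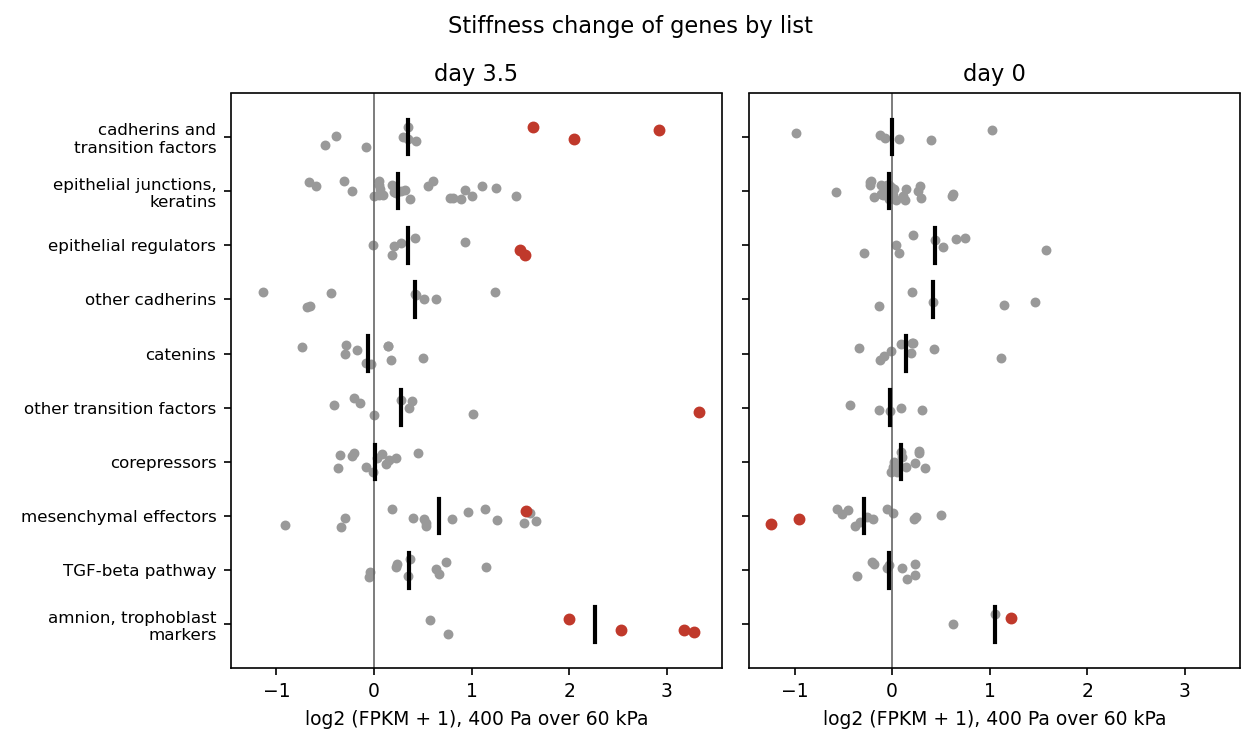
Log2((FPKM + 1) on 400 Pa / (FPKM + 1) on 60 kPa) of each tested gene by list at day 3.5 (left) and day 0 (right); points are genes, red where called in the authors' table, and black bars are list medians. At day 3.5 the called genes of the lists drawn lie above 0, and TWIST1, TP63 and PRRX1 could only be called there. Of all tested loci, 1.07% were called above 0 and 0.246% below it. In lists not drawn, OTX2 (-1.12) and VWF (-1.93) were called below 0. Medians are 0.25 for epithelial junctions and 0.67 for mesenchymal effectors. At day 0 the 2 called mesenchymal effectors lie below 0.

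Markers of other cell types moved with the gels at day 3.5. Of 6 amnion and trophoblast markers, which include the keratin gene KRT7, 4 were called in the authors' deposited table with the higher level on 400 Pa. The summed level of the 6 was 247 FPKM on the soft gel and 39.2 on the stiff one. Over all tested loci 1.07% were called on that side and 0.246% on the other, and 5.83% had an unadjusted p below 0.05. The lists were chosen with earlier results known, so nothing is read from these counts. Of 8 tested mesoderm markers, HAND1 and FOXF1 were called in the authors' deposited table with the higher level on 400 Pa, with a list sum of 119 and 43.8 FPKM. FOXF1, at 4.19 and 0.605 FPKM, reached 1 FPKM only on 400 Pa and so could only be called on that side. Of 5 tested neural crest markers none was called and 2 had an unadjusted p below 0.05 in the authors' deposited table; the sum of the 6 was 13.1 and 8.56 FPKM, with a median change of 0.37 over the 5. Those 2 were ETS1, at 8.72 and 3.92 FPKM, and TFAP2B, at 1.21 and 0.231 FPKM. SOX10, a defining marker, was at 0.470 and 1.14 FPKM, and PAX3 at 1.16 and 0.676 FPKM. Of 4 tested neuroectoderm markers OTX2 was called in the authors' deposited table with the higher level on 60 kPa, with a list sum of 89.8 and 182 FPKM. Among endoderm markers SOX17 and FOXA2 were below 1 FPKM on both gels, and GATA6 was called in the authors' deposited table with the higher level on 400 Pa. Of 2 tested endothelial markers VWF, at 0.873 and 6.12 FPKM, was called in the authors' deposited table with the higher level on 60 kPa. Its p of 5e-05 there does not go with its statistic of 1.78, and it reached 1 FPKM only on the stiff gel. TEK was at 5.82 and 3.91 FPKM without a call, and CDH5, at 0.662 and 0.256 FPKM, was not tested. At day 0 the authors' deposited table had TFAP2A, of 3 tested amnion and trophoblast markers, as a call on the soft side, and that list summed to 22.03 and 10.5 FPKM. The p of TFAP2A there is 5e-05, which does not go with its statistic of -1.20. At 2.41 and 0.465 FPKM, TFAP2A reached 1 FPKM only on the soft gel and could only be called on that side. No marker of these lists found at day 3.5 was listed at 0. The part of these cell types in the changes of SNAI2, TWIST1 and CDH11 was not tested.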

How the data were processed

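The authors made the values with Cufflinks, and per the submitters' processing notes the build is hg19; the sources used here give no version, aligner, annotation or strand setting. Per the file headers, the deposited table of each day holds per locus 1 FPKM a gel, the log2 ratio with 60 kPa on top, a statistic (used as a score), and its p-value and q-value. Whole-number counts and values per library were not analysed here, so depth is unknown. The deposited q-values equal a Benjamini-Hochberg adjustment of all tested p-values within 5.24e-07. The ratio was turned to 400 Pa over 60 kPa, with a pseudocount of 1, for loci with an FPKM of at least 1 on a gel. Where a symbol had several rows, that with the highest mean FPKM was used; loci merging several genes were not matched to lists. File coordinates are hg19, written 1-based.

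The 10 genes and all lists were chosen with earlier results of these data known. Named genes are the 10, and per list and day up to 4 called genes or, with none, the 2 with the highest mean FPKM; others were named after their values were seen. Values of some listed genes are not reported here. Genes of like pattern were ranked by Euclidean distance over centred log2(FPKM + 1) values of the 4 groups. The test of days was run on simulated data first, with noise drawn from the same implied SE. That run could not show whether those SE hold for these data. Alternatives were other thresholds, adjustments, FPKM minimums, pseudocounts and scalings. Software was scipy 1.17.1, numpy 2.4.6, matplotlib 3.10.9, pandas 2.3.3 and Python 3.11.15.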

Additional observations from a re-analysis of the deposited data

Results flagged for a closer look

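The change of VIM between the gels differed between the days. It was 1.56 as the log2 ratio of 400 Pa over 60 kPa at day 3.5 and -0.96 at day 0, a difference of 2.51 (SE 0.52), which passed the adjusted threshold of 0.05 over 14316 genes in a normal approximation on the deposited ratios. Of the 10 cadherin, EPCAM and factor genes, 6 could be compared and none of these passed.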

How the results depend on the processing

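No paired analysis was possible because the tables hold 1 value per group, and for the same reason no library could be left out. SNAI2 and CDH11 were called at day 3.5 under every threshold, adjustment, FPKM minimum and row choice run, and TWIST1 under all but a q threshold of 0.01 and an FPKM minimum of 5, so that the calls of the 10 genes numbered 2 or 3. None was called at day 0 under any of them. All these settings reuse the deposited p, which at day 3.5 is 5e-05 for SNAI2 and CDH11, the lowest in the authors' deposited table. Calls from the statistic, which gives CDH11 a p of 0.0368 in a normal approximation, were not run. Of the other listed genes, with the cell type markers left out of this count, 3 to 6 were called at day 3.5. The most were called with q below 0.1, which added KRT8 and POSTN. At day 0 the 3 called, again without the markers, became 0 with q below 0.01, since no q of that table is so low. With FPKM rescaled without the 10 highest loci, CDH11 at day 0 turned to -0.012 and CDH3 on 400 Pa across days to -0.053, and 8 in place of 9 genes were higher at day 3.5 on the soft gel. No other direction turned. Implied SE were 0.50 to 2.96 log2 units among the 7 genes without a call at day 3.5, and a missing call does not show equal levels.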

Other observations

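Of 10452 other genes that reached 5 FPKM somewhere, those with the pattern over the 4 groups most like that of SNAI2 were HEY1 (distance 0.40), PLA2G2A (0.45) and HGF (0.50). HEY1, a Notch target gene, was at 23.5 FPKM on the soft gel and 3.08 on the stiff one at day 3.5, against 0.354 and 0.363 at day 0. HGF, the gene of hepatocyte growth factor, was at 29.6 and 1.79 FPKM, against 0.275 and 0.121. For CDH1 the nearest were PHF23 (0.03), TMUB2 (0.05) and SLC38A10 (0.06), all with shallow differences between groups. For CDH2 they were AC007292.7 (0.14), APLP1 (0.32) and AC015987.2 (0.32). APLP1, a homologue of the amyloid precursor gene, was at 13.4 and 23.4 FPKM at day 3.5, against 5.34 and 9.31 at day 0. These distances rest on 4 values per gene.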
